A study of Mus musculus with 13 samples.

Results

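The cells described here are macrophages sorted as infiltrating from the spinal cord of mice with experimental autoimmune encephalomyelitis (EAE), a model of multiple sclerosis in which an immune attack on myelin draws blood leukocytes into the cord. They were taken as every cell that the deposited cell table classes as macrophage and assigns to the infiltrating sort gate, which gave 1680 of 22148 cells, out of 5905 cells of that gate. Of these, 1643 cells (97.8%) belonged to the deposited cluster 6, 32 to cluster 4 and 5 to cluster 3. The same cluster 6 held 1407 infiltrating monocytes, so the macrophage and monocyte classes divide one cluster.

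The series profiled spinal cord myeloid cells by droplet single-cell RNA sequencing, in which each captured transcript carries a unique molecular identifier (UMI). Infiltrating macrophages came from 3 libraries of chronic EAE and 2 libraries of peak EAE, called chronic a, b and c and peak a and b below. Resident-gate microglia from 3 chronic EAE and 2 peak EAE libraries served as a comparison class. All mice carried Cx3cr1YFPCreERT2:R26tdTomato, a fate-mapping line in which an inducible Cre at the fractalkine receptor locus (Cx3cr1) turns on the red reporter tdTomato. Cx3cr1 is also expressed by blood monocytes, so the line separates resident from infiltrating cells by the persistence of the label and not by a gene unique to either. Resident cells of healthy control mice were not analysed here. The ages of the mice and whether animals were pooled for a library are not given in the sources used here.

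Monocyte-derived macrophages arise when blood monocytes leave the vessels, lose monocyte genes and take up the receptors, lysosomal enzymes and lipid-handling proteins of phagocytes. In demyelinating lesions they ingest myelin, whose cholesterol has to pass through the lysosome before it is exported or stored. They are also known for presenting antigen to T cells, for secreting chemokines that bring in more leukocytes, and for processing arginine either through arginase (Arg1) or through inducible nitric oxide synthase (Nos2).

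The 5 libraries held 350, 265 and 199 macrophages at chronic EAE (a, b and c) and 686 and 180 at peak EAE (a and b). Their summed depth was 3800119, 2827332 and 1548500 UMIs at chronic EAE and 8469739 and 2201150 UMIs at peak EAE, and all levels below are UMIs of a gene per 1000000 UMIs summed over the class in a library (CPM). Precision is therefore lowest in chronic c and highest in peak a. Chronic c and peak b were least like the others, with log2 CPM that correlated at 0.874 to 0.918 and at 0.873 to 0.928 with the rest. In chronic c the median depth per cell was 6552 UMIs, against 10103 to 12285.5 in the other 4. Chronic a and b shared a sequencing pool, and chronic c, peak a and peak b each came from another pool. Chronic b came from a library in which 1915 of 2359 cells (81.2%) were microglia. No cell was marked as a doublet in the deposited table, and 10 macrophage barcodes also occurred in another library. A sum over a class cannot tell fewer expressing cells from less RNA per cell.

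Markers of other cell types were low but not absent in the macrophage sums. The 12 microglial markers summed to 867, 2038 and 2575 CPM at chronic EAE and 849 and 919 CPM at peak EAE, against 9652 to 15473 CPM in microglia, and were higher in chronic b and c than elsewhere. T cell markers, of which 13 were in the files, summed to 156, 51.6 and 46.5 CPM at chronic EAE and 205 and 143 CPM at peak EAE, against 6665 to 8193 CPM in T cells. At least 1 such UMI was present in 173 of 350, 73 of 265 and 40 of 199 chronic macrophages. The same held for 380 of 686 and 66 of 180 peak macrophages, and for 197 of 1023 monocytes of peak a. The T cell receptor gene Cd3e alone had 0 to 2.24 CPM in macrophages. Which markers gave these UMIs was not tested. The 14 dendritic markers summed to 91.7 to 250 CPM, against 1010 to 2089 CPM in dendritic cells, with Xcr1 at 0. Border macrophage markers summed to 297 to 602 CPM with Cd163, Lyve1 and Cd209f at 0, and the 5 B cell markers in the files summed to 1.36 to 16.8 CPM with Cd79a and Pax5 at 0. The 10 neutrophil markers, with Ly6g at 0, summed to 210, 195 and 62.0 CPM at chronic EAE and 430 and 194 CPM at peak EAE, against 57.4 to 326 CPM in monocytes, 160 to 349 CPM in microglia, 3.76 to 21.9 CPM in dendritic cells and 0 to 10.1 CPM in T cells. The part of these cell types in the results below was not tested.

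The class was checked against 5 genes chosen to mark it, which all lie in protein-coding genes of GRCm38. These were Arg1 (chr10:24915207-24927470), which splits arginine into ornithine and urea; Ms4a7 (chr19:11321039-11336146), a membrane protein of mature macrophages; and Gpnmb (chr6:49036518-49058182), a lysosomal glycoprotein of phagocytes. The others were Tgfbi (chr13:56609586-56639359), a secreted matrix protein induced by TGF-beta, and F10 (chr8:13037308-13056676), coagulation factor X. The classes were drawn from the same expression values by the authors, so the comparisons of classes below describe the classes and carry no test. A gene is said to pass the fold rule when its fitted difference was at least 2-fold and had the same direction in every library on log2 CPM scaled by trimmed mean (TMM), or, against microglia, at least 2-fold with no overlap between libraries.

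Arg1 stood at 1776, 98.0 and 9.69 CPM in chronic a, b and c and at 1934 and 859.6 CPM in peak a and b. Both chronic b and chronic c lay far below the other 3 libraries, and chronic a lay among the peak libraries. Dendritic cells had 4.86, 0 and 0 CPM at chronic EAE and 33.3 and 0 CPM at peak EAE, and T cells had 0 to 32.5 CPM. Microglia had 0.0557 to 3.70 CPM.

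Ms4a7 was found at 777, 1136 and 1746 CPM in the chronic libraries and 522 and 572 CPM in the peak libraries, so that every chronic library lay above both peak ones. The same gene reached 2.43 to 17.1 CPM in dendritic cells, 0 to 15.2 CPM in T cells and 5.69 to 111 CPM in microglia. Gpnmb had 1468, 1625 and 956 CPM at chronic EAE and 850.1 and 836 CPM at peak EAE, against 4.28 to 10.4 CPM in dendritic cells and 0 to 10.1 CPM in T cells. Microglia did not overlap with macrophages, but their range was wide, with 431, 483 and 182 CPM in 3 chronic resident libraries and 10.0 and 40.6 CPM in 2 peak ones. Gpnmb was thus a gene that microglia of chronic cords also carried.

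Tgfbi had 2138, 2016 and 364 CPM in chronic macrophages and 1872 and 1432 CPM in peak macrophages, with chronic c alone standing low. F10 was also lowest in chronic c, at 453, 175 and 35.5 CPM in chronic a, b and c and 751 and 385 CPM in peak a and b. Microglia had almost none of it, at 0.0557 to 0.308 CPM, and Tgfbi reached 22.4 to 196 CPM there. All 5 markers passed the fold rule against dendritic cells, T cells and microglia, as 10.4%, 17.8% and 5.95% of all genes tested in each comparison did in the same direction. Only Ms4a7 and Gpnmb passed it against monocytes, where 1.78% of genes did.

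Against the monocytes of the same libraries, Arg1 was also present: monocytes had 779, 75.4 and 0 CPM at chronic EAE and 855 and 703 CPM at peak EAE. Tgfbi was if anything higher in monocytes, at 3044, 2366 and 541 CPM in the chronic and 2362 and 1728 CPM in the peak libraries, a log2 fold change of -0.31 ± 0.08 (SE) for macrophages over monocytes. F10 reached 383, 109 and 33.6 CPM in chronic and 531 and 354 CPM in peak monocytes. Macrophages exceeded the monocytes of their own library in 5 of 5 libraries for Arg1 and F10, with log2 fold changes of 0.92 and 0.41 that did not reach the rule. The 37 macrophages outside cluster 6 went against the label in part. Their sum pooled over libraries had 45.8 CPM of Arg1 and 3.27 CPM of F10, against 1364 and 511 CPM in cluster 6. Ms4a7 (1251, against 764 CPM) and Gpnmb (1886, against 1085 CPM) were higher in them. They also had 265 CPM of Sparc, which is abundant in microglia, against 6.69 CPM in cluster 6. Most of these cells came from chronic b (27 of cluster 4 and 5 of cluster 3), where all macrophages together had 98.0 CPM of Arg1. The part of library in these differences was not tested.

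**Figure D1:**
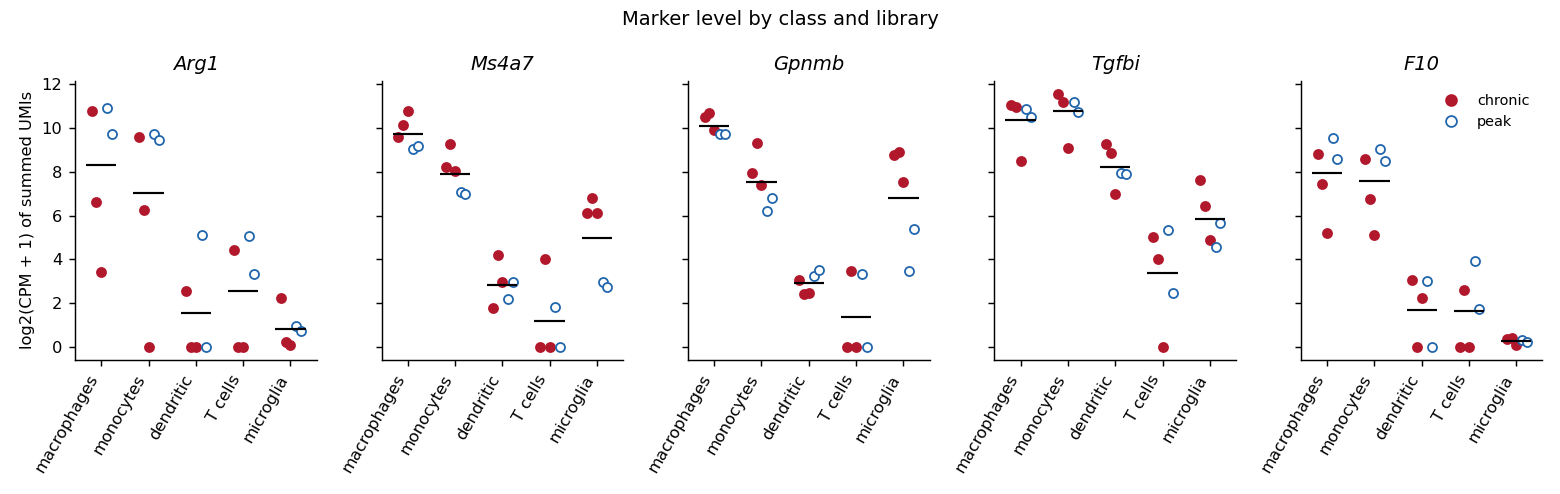
Level of the 5 markers, as log2(CPM + 1) of UMIs summed per class and library (microglia from resident-gate libraries, the other classes from infiltrating-gate libraries). Filled points are chronic and open points peak libraries, and bars are class means; the ranges of macrophages and monocytes over libraries overlap for Arg1, Tgfbi and F10, while Ms4a7 and Gpnmb are higher in macrophages of every library.

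Monocytes were the nearest class. Only 290 of 8357 genes tested (3.47%) passed the fold rule, 149 higher in macrophages and 141 lower (1.69%), whereas 1288 of 7745 (16.6%) did against dendritic cells and 2264 of 7948 (28.5%) against T cells. The clearest loss in macrophages was Ccr2, the receptor with which monocytes leave the bone marrow and enter inflamed tissue. It had 16.8, 17.0 and 8.40 CPM in chronic and 22.1 and 14.5 CPM in peak macrophages, against 469, 438 and 548 CPM in chronic and 636 and 914 CPM in peak monocytes, and the log2 fold change was -5.07 ± 0.18 (SE). No macrophage library came near a monocyte library for this gene.

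Other monocyte genes were lower as well. Of 15 monocyte genes tested, 7 were lower in macrophages by the fold rule and 0 higher, with a median log2 fold change of -0.96, against -0.00474 for all genes. Plac8, a small cysteine-rich protein of myeloid precursors, had 786, 38.6 and 11.0 CPM in chronic and 901 and 509 CPM in peak macrophages, against 2370.4, 508 and 1716 CPM and 3925 and 2795 CPM in monocytes of the same libraries. S100a4, a calcium-binding protein of motile cells, had 70.3, 28.6 and 17.4 CPM and 70.4 and 117 CPM in macrophages of the 2 stages, against 258, 121 and 725 CPM and 238 and 567 CPM in monocytes. Also among the 6 lowest were the interferon-induced transmembrane genes Ifitm6 (log2 fold change -3.03) and Ifitm1 (-1.87), and the antimicrobial ribonuclease gene Rnase6 (-2.13). Lyz2, the lysozyme gene shared by both cell types, did not separate them: its log2 fold change was 0.41 ± 0.07 (SE).

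In the list of damage-associated genes, which brings together genes known from phagocytes of injured or demyelinated tissue, 12 of 21 members passed the fold rule upward and 0 downward, with a median log2 fold change of 1.18. Spp1, the secreted phosphoprotein osteopontin, had 9615, 1656 and 4533 CPM in chronic and 1019 and 1288 CPM in peak macrophages, against 1811, 216 and 324 CPM and 214 and 472 CPM in monocytes. Trem2, a lipid-sensing receptor of phagocytes, had 515, 909 and 1686 CPM and 794 and 1027 CPM, against 213, 608 and 553 CPM and 438 and 433 CPM. Macrophages exceeded monocytes in each of the 5 libraries for both genes. The list did not set macrophages apart from microglia: 4 of 21 were higher and 2 lower, with a median log2 fold change of -0.0107. Over all genes in that comparison, 5.95% were higher and 7.77% lower. The list summed to 21297 to 47452.5 CPM in macrophages and to 22550 to 44834 CPM in microglia.

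Fabp5, which carries fatty acids inside the cell, was at 10035, 4943 and 1778 CPM in chronic and 3951 and 2195 CPM in peak macrophages, with a log2 fold change over monocytes of 2.48 ± 0.20 (SE). Cd63, a tetraspanin of late endosomes, showed 2.10 ± 0.21 and Atp6v0d2, a subunit of the proton pump that acidifies lysosomes, 3.09. The growth factor Igf1 was low in both classes, at 14.5, 75.0 and 123 CPM in chronic and 1.06 and 6.36 CPM in peak macrophages, against a mean of 3.50 ± 4.96 CPM (SD, n = 5) in monocytes.

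Among 25 lysosomal genes, 6 were higher in macrophages than in monocytes and 0 lower, and the median log2 fold change was 0.72. Ctsd, which encodes the protease cathepsin D, had 4236, 4416 and 5925 CPM in chronic and 2998 and 4251 CPM in peak macrophages, against 1326, 2077 and 1479 CPM and 916 and 1206 CPM in monocytes. Ctsb, encoding cathepsin B, stood at 5142, 3698 and 3848 CPM and 4113 and 3231 CPM, against 1919, 1826 and 1525 CPM and 1244 and 1154 CPM. Neither gene's macrophage and monocyte values overlapped. Ctsl, Hexa and the 2 genes already named, Cd63 and Atp6v0d2, were the other members past the rule. Tfeb, whose product switches on lysosomal genes, did not differ by the rule, with a log2 fold change of 0.01 ± 0.16 (SE).

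The lipid list gave 7 of 20 higher and 0 lower against monocytes. Apoe, the main lipid carrier of the brain, reached 10149, 25605 and 76716 CPM in chronic a, b and c and 16744 and 45262 CPM in peak a and b, against 4468, 15716 and 15443 CPM and 9318 and 14326 CPM in monocytes. Its level in macrophages varied more than the difference between the classes, and chronic c was the highest library. The cholesterol exporter Abca1 (log2 fold change 1.23), the oxysterol receptor Nr1h3 (1.13), the cholesteryl ester hydrolase Nceh1 (1.01), the fatty acid carriers Fabp4 (2.39) and Fabp5, and the lipid droplet gene Hilpda (1.09) made up the rest. Soat1, which esterifies cholesterol for storage, was nearly constant over libraries, at 291, 295 and 246 CPM and 263 and 303 CPM in chronic and peak macrophages, and did not pass the rule (log2 fold change 0.48).

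Members of 3 smaller groups also separated macrophages from monocytes. The 3 genes of complement C1q, which tags debris for uptake, were the members past the rule among 14 complement genes; C1qa had 1940.5, 2944 and 7142 CPM in chronic and 2067 and 3462 CPM in peak macrophages, a log2 fold change over monocytes of 1.22. Among 15 chemokines, 5 were higher and 0 lower: Ccl2 (1.27), Ccl3 (1.47), Ccl4 (1.46), Ccl7 (2.07) and Pf4 (2.95). The first 4 recruit monocytes and lymphocytes, and Pf4 is a heparin-binding chemokine of platelets and some macrophages. In the coagulation list, 2 of 12 passed: Plau, the urokinase that activates plasminogen, at 1.51, and Tfpi, the tissue factor pathway inhibitor, at 1.32.

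**Figure D2:**
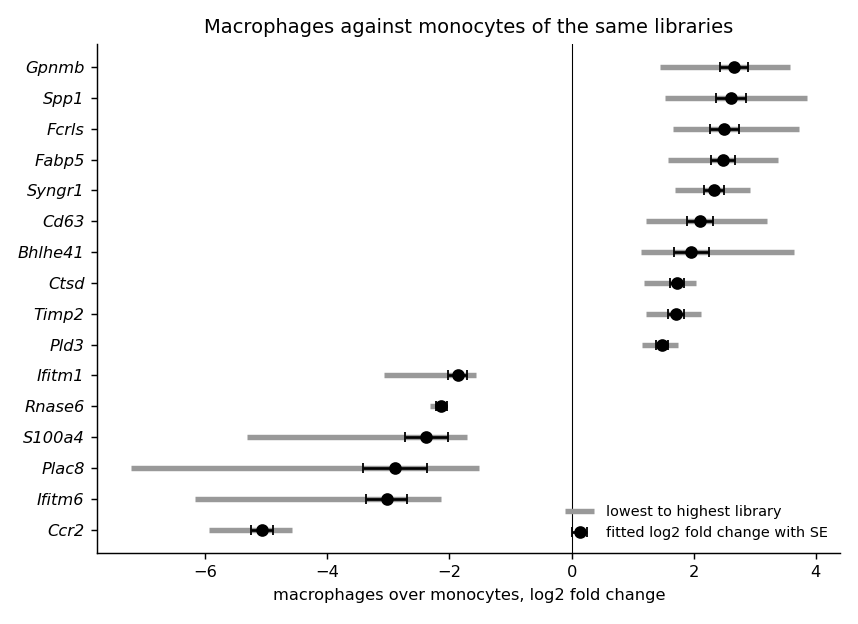
Fitted log2 fold change of macrophages over monocytes of the same libraries for the 10 genes that were highest and the 6 that were lowest by their weakest library, with the standard error (black) and the range of the 5 single libraries (grey). Every library lies on the same side of 0, and Ccr2 is the gene farthest from it.

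Several gene groups did not divide macrophages from monocytes. Of 9 antigen-presentation genes of MHC class II, 0 passed the fold rule in either direction (median -0.0231), and the same held for 6 Fc receptors, 10 scavenger receptors, 14 genes of arginine and polyamine metabolism and 36 subunits of mitochondrial complex I. Complex I takes electrons from NADH into the respiratory chain, and its 36 nuclear-encoded subunits had a median log2 fold change over monocytes of -0.0126. No mitochondrially encoded gene was in the files. In the hypoxia and glycolysis list, 1 of 26 passed, and in the interferon-response list 0 of 22 were higher and 1 lower.

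Against dendritic cells, nearly all lysosomal genes were higher in macrophages. Of 22 lysosomal genes tested, 20 were higher in macrophages by the fold rule and 0 lower, with a median log2 fold change of 2.21, against 0.00414 over all genes. In the other direction 6.2% of all genes passed. Ctsd had 82.9 to 235 CPM in dendritic cells (5.39 ± 0.25, SE), Ctsb had 192 to 406 CPM (4.03 ± 0.17), and Lgmn, the asparaginyl endopeptidase legumain, had 1126, 793 and 697 CPM in chronic and 1259 and 834 CPM in peak macrophages, against 38.0 to 169 CPM in dendritic cells. The macrophage and dendritic values were far apart for all 3 genes. Of 17 lipid genes 13 were higher, 10 of 13 complement genes, 8 of 10 iron genes and 14 of 18 damage-associated genes.

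Apoe had 156 to 702 CPM in dendritic cells, a log2 fold change of 6.40 ± 0.42 (SE). Slc11a1, a metal-ion transporter of the phagosome membrane, had 112, 141 and 129 CPM in chronic and 182 and 177 CPM in peak macrophages, against 0 to 5.94 CPM in dendritic cells. Also among the 10 genes farthest above dendritic cells were Syngr1, a vesicle membrane protein (6.82 ± 0.34); Pla2g7, a secreted phospholipase that hydrolyses oxidised lipids (6.40 ± 0.42); Fam20c, a kinase of secreted proteins (6.32 ± 0.31); and F13a1, the A subunit of coagulation factor XIII (6.04 ± 0.25). Bhlhe41, a transcriptional repressor, had 3 UMIs in all dendritic cells and 20.7 to 246 CPM in macrophages.

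Dendritic cells had the higher level of antigen-presentation genes: 6 of 10 MHC class II genes were lower in macrophages and 0 higher, with a median log2 fold change of -1.08. Cd74, the invariant chain that guides class II molecules to the endosome, had 19976, 53539.9 and 16103 CPM in chronic and 17955 and 14127 CPM in peak macrophages, against 61556, 76525 and 43309.6 CPM and 29558 and 15732 CPM in dendritic cells, and did not pass the rule, with a fitted log2 fold change of -0.79. H2-Oa, which tunes peptide loading in dendritic and B cells, passed it with 7.11 to 51.3 CPM in macrophages, against 214 to 484 CPM in dendritic cells. The genes lowest in macrophages by the rule were dendritic or lymphoid genes close to absence, such as Klrd1 at 0.354 to 1.58 CPM, against 289 to 516 CPM, and Cd209a at 0 to 2.37 CPM, against 26.1 to 440.2 CPM in dendritic cells. In the list of genes linked to alternative activation, 2 of 14 were higher, Arg1 and Chil3, and 6 were lower. Without chronic c, the lower members of the interferon-response list were 4 of 22, in place of 2.

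T cells differed from macrophages most widely, with 1411 genes (17.8%) higher in macrophages and 853 (10.7%) lower, a split of 62.3% higher among the genes past the rule. Scaling by library size alone gave 42.5% higher, and the median log2 fold change of all genes was then -0.334, against 0.0261 with TMM scaling. Of 23 lysosomal genes, 22 were higher and 0 lower (median 4.67), and of 9 class II genes 7 were higher and 0 lower (median 6.05). Lyz2 had 12002, 20497 and 44638 CPM in chronic and 10947 and 22405 CPM in peak macrophages, against 62.6 to 205 CPM in T cells. Cybb, the membrane subunit of the oxidase with which phagocytes make superoxide, had 465, 858 and 883 CPM and 747 and 1302 CPM, against 0 to 11.4 CPM in T cells, a log2 fold change of 6.89 ± 0.28 (SE). C3, the central complement component, had 161, 260.3 and 54.2 CPM and 236 and 458 CPM, against 0 to 6.87 CPM.

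Cebpa, a transcription factor of the myeloid lineage, had 46.8, 57.7 and 163 CPM in chronic and 88.7 and 202 CPM in peak macrophages and 0 UMIs in T cells. Lower in macrophages were genes of cytotoxic and T cell receptor function, each of them near absence: the protease gene Gzma at 0 to 1.30 CPM, against 1455 to 5236 CPM in T cells, the receptor chain Cd3e at 0 to 2.24 CPM, against 355 to 1238 CPM, and the kinase Lck at 0 to 2.24 CPM, against 369 to 768 CPM. Of 16 proliferation genes, 11 were lower in macrophages than in T cells and 0 higher. The chemokine Ccl5, at 169.8 to 2521 CPM in macrophages, against 2768 to 12025 CPM in T cells, was the 1 chemokine of 14 lower in macrophages, and 10 were higher.

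Microglia, the resident macrophages of the cord, had lysosomal genes at levels close to those of infiltrating macrophages. Of 24 lysosomal genes, 1 was higher in macrophages, Tfec, and 2 were lower, Lgmn among them, with a median log2 fold change of -0.0753, against -0.0337 over all genes. Ctsb had 5142, 3698 and 3848 CPM in chronic and 4113 and 3231 CPM in peak macrophages, against 6115, 5613 and 3631 CPM and 4853 and 3635 CPM in microglia. The C1q genes were abundant in both, and C1qa and C1qc were lower in macrophages by the rule: C1qc had 2943, 4500.0 and 4792 CPM and 2001 and 2250.2 CPM, against 13263, 14102 and 9233 CPM and 8026 and 7971 CPM in microglia. The 2 classes came from different libraries here, and gate, library and class cannot be told apart. In all, 600 genes were higher in macrophages and 783 lower (7.77%), that is 43.4% higher among those past the rule; scaling by library size alone gave 26.1% and a median of -0.337. With microglia of the infiltrating libraries instead, 483 genes were higher in macrophages and 247 lower, that is 66.2% higher. Of these genes, 533 were shared with the comparison above. The classes were then compared within libraries by the same-direction rule, so the percentages do not rest on the same rule. Peak b was left out, with 2 microglia, and chronic a and peak a entered with only 11 and 18.

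Coagulation factors and genes shared with monocytes were among those farthest above microglia. F13a1 had 139.7, 85.9 and 71.0 CPM in chronic and 297 and 277 CPM in peak macrophages, against 0 to 0.296 CPM in microglia, and F10 was nearly as far apart. F7, encoding coagulation factor VII, had 67.6, 19.5 and 1.94 CPM and 65.3 and 54.5 CPM, against 0 to 0.308 CPM. In the coagulation list 7 of 13 genes were higher and 1 lower. Sirpb1c, a paired receptor of myeloid cells, had 221, 244 and 124 CPM and 285 and 124 CPM, against 0 to 0.308 CPM, and Anxa1, an anti-inflammatory annexin, 55.9 to 223 CPM, against 0 to 0.308 CPM. Of 13 monocyte genes, 11 were higher in macrophages than in microglia and 0 lower. Even Ccr2, so much lower than in monocytes, had 8.40 to 22.1 CPM, against 0 to 1.11 CPM in microglia.

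Ferritin was another difference from microglia. Fth1, the ferritin heavy chain that stores iron, had 59250.5, 61188 and 33146 CPM in chronic and 55883 and 33232 CPM in peak macrophages, against 20673, 25036 and 13513 CPM and 7581 and 8581 CPM in microglia (2.10 ± 0.36, SE). Ftl1, its light chain, had 12113, 10178 and 12469 CPM and 11984 and 9801 CPM, against 4493, 4671 and 5599 CPM and 4714 and 5289.7 CPM. Hmox1, which frees iron from heme, had 201, 111 and 209.9 CPM and 439.7 and 195 CPM, against 83.1, 71.7 and 111 CPM and 63.6 and 120.5 CPM. For Fth1 and Ftl1 the lowest macrophage library lay above the highest microglial one, whereas Hmox1 in chronic b macrophages lay below the highest microglial library in CPM and passed the rule after TMM scaling. In all, 5 of 13 iron genes were higher and 2 lower, as were 10 of 19 antioxidant genes (0 lower) and 9 of 26 genes of hypoxia and glycolysis (0 lower). Without chronic c, the count of hypoxia and glycolysis genes was 15 of 26 and that of matrix genes 10 of 19, in place of 6 of 17.

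Genes of microglial identity were lower: 9 of 12 microglial markers passed the rule downward and 0 upward. Sparc, a secreted matrix protein, had 1.84, 48.1 and 1.94 CPM in chronic and 6.49 and 1.82 CPM in peak macrophages, against 1033, 1025 and 1001 CPM and 1064 and 961 CPM in microglia. Chronic b was the highest macrophage library for Sparc, and among the infiltrating libraries it held most microglia. It also held 27 of the 32 macrophages in cluster 4 and all 5 in cluster 3. Macrophages of these 2 clusters had 81 Sparc UMIs, against 124 in all cluster 6 macrophages. Siglech, a sialic-acid-binding receptor, had 0, 3.54 and 0 CPM and 0 and 0 CPM, against 90.8 to 348 CPM, with UMIs in chronic b only.

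**Figure D3:**
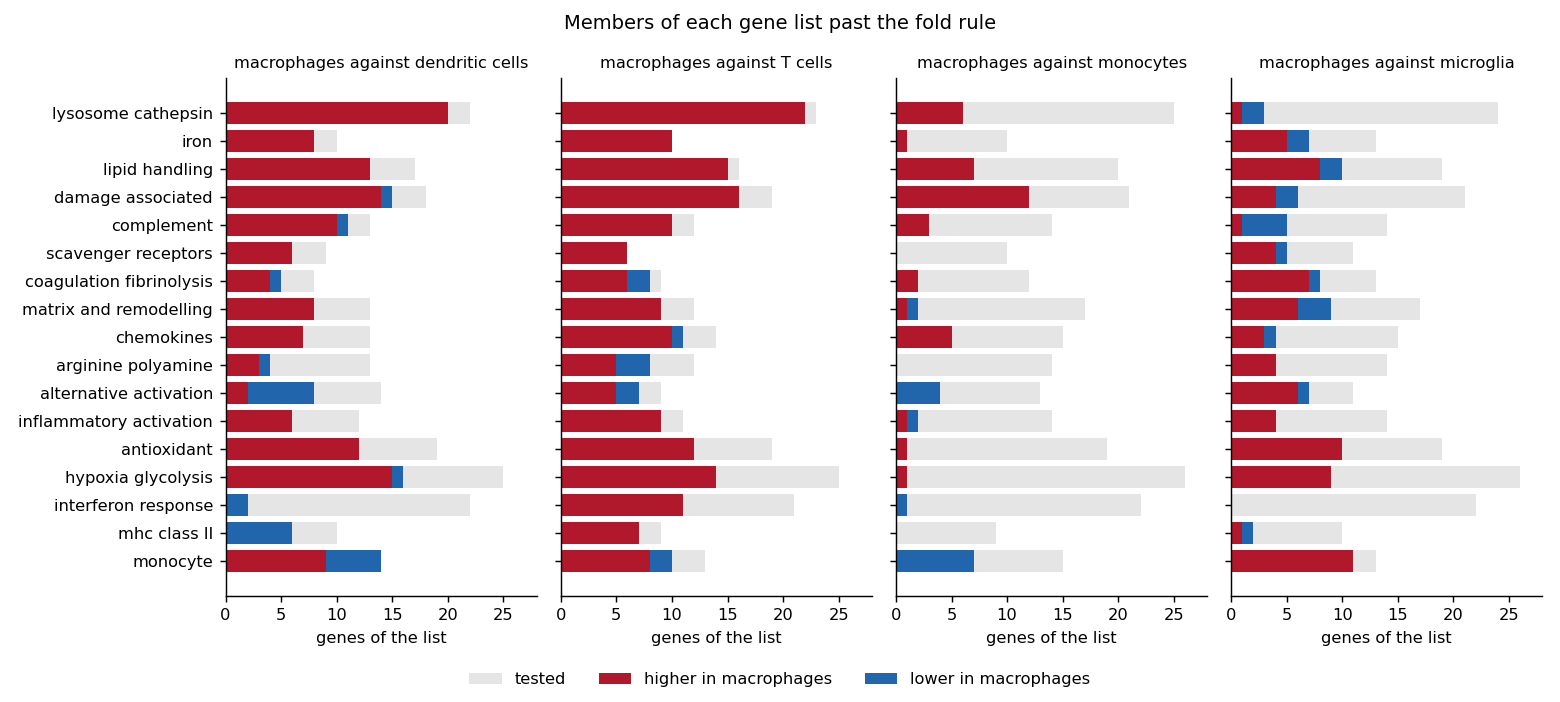
Number of genes of each list that passed the fold rule, higher (red) or lower (blue) in macrophages, over the number tested (grey), in 4 panels for the 4 comparison classes. Lysosomal genes are higher in 20 of 22 against dendritic cells and 22 of 23 against T cells, but in 1 of 24 against microglia.

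Of 7352 genes tested in all 4 comparisons, 30 were higher in macrophages than in each of the 4 comparison classes and 4 were lower. The deposited classes of CAMs (border macrophages) and neutrophils were not compared. The 30 included Gpnmb, Ms4a7, Fabp5, Fabp4, Nr1h3, Hmox1, Saa3 and Pf4, which are markers or list members. They also included Gla, a lysosomal galactosidase at 128, 72.2 and 60.1 CPM in chronic and 128 and 74.1 CPM in peak macrophages; Acsl1, which activates fatty acids, at 36.8, 104 and 101 CPM and 97.2 and 187 CPM; Anpep, an aminopeptidase, at 119, 80.3 and 36.8 CPM and 88.6 and 75.4 CPM; and Slc27a1, a fatty acid transporter, at 32.4, 26.5 and 25.8 CPM and 24.6 and 32.3 CPM. These last 4 were chosen after their values were seen. Pf4 had 0 UMIs in dendritic cells and in T cells, and 78.7, 26.2 and 48.4 CPM in chronic and 39.8 and 26.8 CPM in peak macrophages.

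Several genes of the class differed widely between the 5 libraries. The median range over libraries, on the log2(CPM + 1) scale, was 1.04 over 9219 genes, and the 95th percentile was 2.40. Chil3, a chitinase-like secreted protein of inflammatory monocytes, had the widest range of all, 8.87, with 1410.2, 886 and 8.40 CPM in chronic a, b and c and 4384 and 1564 CPM in peak a and b. Ccl7, a chemokine for monocytes, came next with 7.94: it had 879, 47.0 and 2.58 CPM in the chronic and 13.9 and 64.1 CPM in the peak libraries, and chronic a alone was high. Arg1 followed, at 7.50. Chil3 and Arg1 were highest in peak a, Ccl7 in chronic a, and all 3 were lowest in chronic c.

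The markers differed in this respect. F10 had a range of 4.36 and rank 53, Tgfbi ranked 378, Ms4a7 1434 and Gpnmb 5201 with a range of 0.96, close to the median of all genes. Several wide-ranging genes went the opposite way to Arg1, highest in chronic c: Igf1, Cx3cr1 at 11.3, 97.6 and 457 CPM in chronic and 17.9 and 161 CPM in peak macrophages, and Gpr34, a lysophosphatidylserine receptor of microglia, at 3.16, 39.6 and 114 CPM and 1.77 and 1.82 CPM. Gpr34 and Cx3cr1 are also microglial genes, and the summed microglial markers were highest in the same library.

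**Figure D4:**
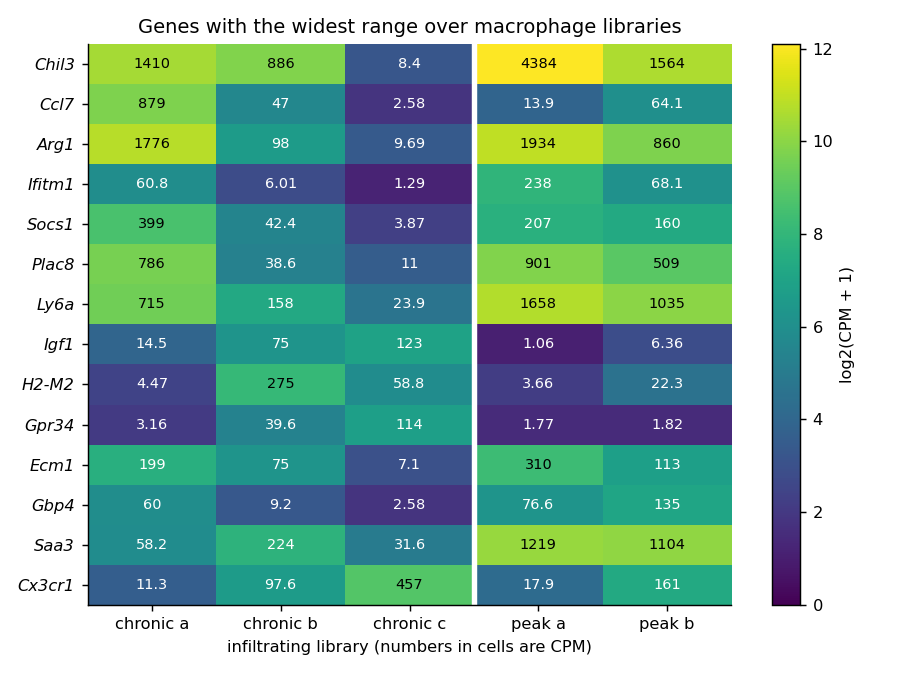
CPM of the 14 named genes with the widest range over the 5 macrophage libraries, in rows by falling range, with chronic libraries left of the white line and peak libraries right of it; colour is log2(CPM + 1). Chil3, Arg1, Plac8 and Ly6a are lowest in chronic c, while Igf1, Gpr34 and Cx3cr1 are highest there.

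Shares of cells were compared after thinning each cell to 2000 UMIs, which left out 5, 2 and 4 chronic and 8 and 3 peak macrophages. An Arg1 UMI was then present in 54.8, 5.70 and 1.54% of chronic a, b and c macrophages and in 68.9 and 42.4% of peak a and b macrophages. In T cells, which should lack the gene, the share was 10.0, 0 and 0% at chronic EAE and 10.1 and 0% at peak EAE, at the same 2000 UMIs per cell. Chronic b and c lay below the T cell shares of chronic a and peak a, while T cells of their own libraries had none. In chronic b, 0 of 48 T cells allows a T cell share of up to 6.25%. Its 277 unthinned Arg1 UMIs lay in 47 macrophages, with up to 56 in 1 cell, and the 15 of chronic c lay in 6. How far the macrophage shares of chronic b and c exceed background was not tested. Unthinned, the shares were 65.1, 17.7 and 3.02% and 83.2 and 61.1%. In the unthinned cells the tenth of macrophages richest in Arg1 held 48.8%, 92.1% and 100% of Arg1 UMIs at chronic EAE and 43.0% and 59.0% at peak EAE. The value of chronic c was fixed in advance, because only 3.02% of its macrophages had an Arg1 UMI. Such values rise as fewer cells have a UMI, so they are not compared between libraries.

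Gpnmb was found in 59.4, 70.3 and 51.8% of chronic and 44.8 and 43.5% of peak macrophages, Ms4a7 in 58.0, 71.5 and 92.3% and 50.4 and 49.7%, and Tgfbi in 91.6, 87.5 and 46.7% and 92.2 and 88.7%. The chronic libraries were above both peak libraries for Gpnmb and Ms4a7. An exact two-sided permutation test over the 5 libraries gave p = 0.2 for each, the smallest p that 3 against 2 libraries allow, and p = 0.4 for Arg1. F10 was found in 52.8, 24.0 and 4.1% of chronic and 62.7 and 35.6% of peak macrophages.

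Nos2, the other branch of arginine use, was rarer. A UMI was present in 2.61, 0.380 and 0% of chronic macrophages and 9.59 and 9.04% of peak macrophages; 0 of 195 cells in chronic c allows a share of up to 1.54%. Unthinned, 16 macrophages of chronic a and 0 of chronic b and c had both an Arg1 and a Nos2 UMI, against 171 of peak a and 25 of peak b. Both transcripts were thus found together. Of the Nos2-positive macrophages, 80.0% in chronic a, 91.0% in peak a and 67.6% in peak b had an Arg1 UMI, against 65.1%, 83.2% and 61.1% of all macrophages of those libraries. Depth per cell differs in these unthinned cells, and its part was not tested. Thinned to 2000 UMIs, 6, 48 and 9 macrophages of chronic a, peak a and peak b had both. The shares were then 66.7%, 73.8% and 56.25%, against 54.8%, 68.9% and 42.4% of all macrophages.

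**Figure D5:**
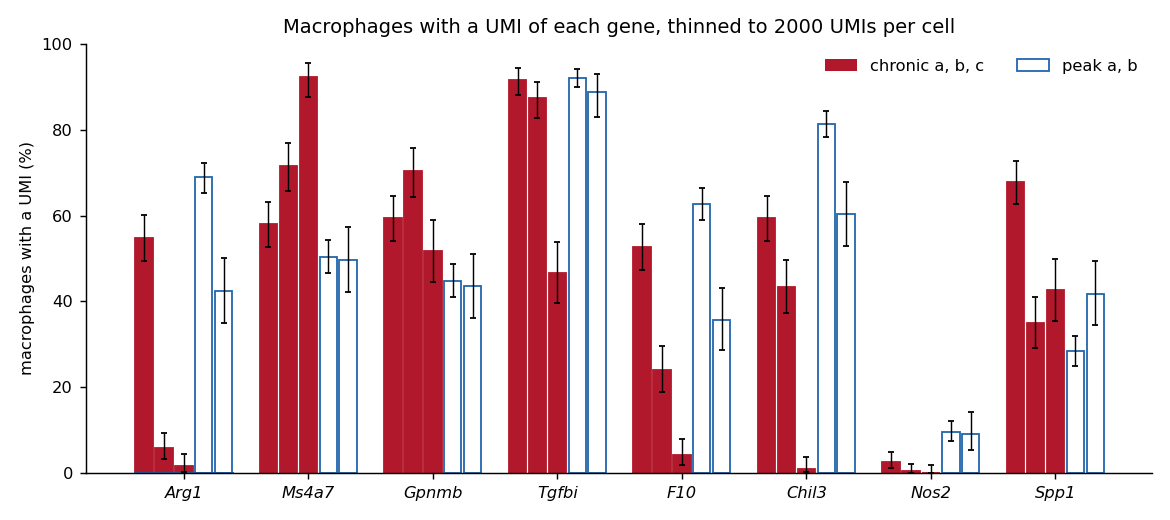
Percent of macrophages with a UMI of each gene in each library after thinning to 2000 UMIs per cell, chronic a, b and c filled and peak a and b open, with exact binomial intervals that cover counting error only. Arg1, F10 and Chil3 are lowest in chronic c, and Ms4a7 is highest there.

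Within libraries, correlations across thinned macrophages showed which genes accompanied each marker. The correlations share library, depth and droplet noise and are given as descriptions, as the mean of 5 within-library Spearman coefficients over 195 to 678 cells for chronic c to peak a and 2344 genes. Gpnmb had the strongest partners: Fabp5 (0.61), Ctsb (0.56), Ctsd (0.54), Psap (0.51), Cd63 (0.42) and Ctss (0.42), each positive in all 5 libraries. Psap encodes the precursor of the saposins, which help lysosomal enzymes degrade lipids, and Ctss cathepsin S. Ms4a7 went with Apoe (0.41) and the 3 C1q genes (0.32 to 0.37), and F10 with Cstb (0.34), an inhibitor of cathepsins, and Lgals3 (0.31), a galactoside-binding lectin. For Arg1 the highest was the chemokine Ccl6 at 0.25, and for Tgfbi 0.18, which is weak. Ms4a7 and F10 ran against each other, at -0.204 on average and below 0 in every library.

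Because Gpnmb and these 6 genes moved together, the promoters of those with an entry in RefSeq's table (5 of 7; Fabp5 and Ctsb are named only) were read from GRCm38.p6, as 250 bases before to 50 after the start of the gene. They were searched on both strands for TCACGTG (the E-box core to which TFEB and its relatives bind), TGANTCA (AP-1) and GAGGAAGT (PU.1). Of 32851 mouse promoters of this length, 3.77% hold TCACGTG, 7.81% hold TGANTCA and 3.20% hold GAGGAAGT. The 4 promoters with a match are shown with the matched bases in capitals.
Gpnmb: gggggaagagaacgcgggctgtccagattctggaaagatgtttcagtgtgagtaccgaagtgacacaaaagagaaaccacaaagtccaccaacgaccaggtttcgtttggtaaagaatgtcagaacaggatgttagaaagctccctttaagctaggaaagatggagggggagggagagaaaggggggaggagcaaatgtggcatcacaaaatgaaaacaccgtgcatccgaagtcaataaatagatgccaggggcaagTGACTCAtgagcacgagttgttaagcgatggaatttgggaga
Ctsd: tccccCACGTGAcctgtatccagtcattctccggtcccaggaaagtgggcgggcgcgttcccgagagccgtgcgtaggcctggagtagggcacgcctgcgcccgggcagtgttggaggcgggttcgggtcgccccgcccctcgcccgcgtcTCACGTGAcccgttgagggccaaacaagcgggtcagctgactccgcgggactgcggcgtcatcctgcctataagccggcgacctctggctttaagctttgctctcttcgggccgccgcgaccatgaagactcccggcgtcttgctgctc
Psap: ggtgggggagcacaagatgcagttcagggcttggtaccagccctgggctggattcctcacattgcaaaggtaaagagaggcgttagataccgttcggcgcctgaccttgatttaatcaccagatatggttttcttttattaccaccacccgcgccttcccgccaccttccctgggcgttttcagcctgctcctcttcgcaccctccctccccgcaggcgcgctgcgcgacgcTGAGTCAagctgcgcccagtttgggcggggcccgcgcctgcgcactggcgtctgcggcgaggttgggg
Ctss: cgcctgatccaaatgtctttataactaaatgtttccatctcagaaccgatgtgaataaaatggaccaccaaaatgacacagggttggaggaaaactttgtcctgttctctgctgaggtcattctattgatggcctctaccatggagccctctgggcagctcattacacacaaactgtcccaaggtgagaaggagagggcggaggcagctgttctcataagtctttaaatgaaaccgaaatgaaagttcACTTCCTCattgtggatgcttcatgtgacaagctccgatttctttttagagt

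The Gpnmb window, chr6:49036268-49036567 on the plus strand, holds 1 TGANTCA match that begins 8 bases after the start. The Ctsd window, chr7:142387778-142388077 on the minus strand, holds 3 TCACGTG matches: 1 on the reverse strand at the far upstream end, and 2 that overlap on opposite strands as a single palindrome nearer the start. That of Psap, chr10:60277378-60277677 on the plus strand, holds a TGANTCA match at position -18 from the start, and a second listed Psap start has none. Ctss (chr3:95526536-95526835, plus strand) has GAGGAAGT on the reverse strand across its start, and Cd63 has none of the 3. Of the 5 genes, 1 holds TCACGTG, 2 hold TGANTCA and 1 holds GAGGAAGT; with so few genes these counts are no more than a description of the letters.

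The comparison of chronic with peak macrophages asks whether the class changes as disease persists. It was tested over the 5 libraries with edgeR's quasi-likelihood test. No gene of 9219 passed an adjusted p of 0.05 (0%), 710 had an unadjusted p under 0.05, and the smallest adjusted p was 0.167; DESeq2 on the same counts called 37. The labels call the libraries biological replicates without saying whether each is 1 animal, and stage cannot be told apart from sequencing pool, which no chronic and peak library shared. Leaving out chronic a gave 155 calls and leaving out chronic c gave 4.

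Since none passed, the genes of smallest p are given as values. Bhlhe41 had 163, 246 and 161 CPM in chronic and 20.7 and 30.9 CPM in peak macrophages, and Ccl4, a chemokine for lymphocytes and monocytes, had 254, 353 and 367 CPM and 46.6 and 57.7 CPM; their log2 fold changes for chronic over peak were 3.03 ± 0.41 and 2.76 ± 0.39 (SE), each with an adjusted p of 0.167 by edgeR. Both are also found in microglia, at 157 to 416 and 83.4 to 1523 CPM. Qpct, an enzyme that cyclises the ends of chemokines, had 22.6, 18.7 and 18.1 CPM and 4.60 and 4.09 CPM. All 3 were higher in every chronic library than in either peak library.

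On the other side, Nos2 had 10.5, 2.48 and 0 CPM in chronic and 64.1 and 68.1 CPM in peak macrophages, a log2 fold change of -3.61 ± 0.71 (SE) with an adjusted p of 0.401 by edgeR. C4b, complement component 4, had 11.6, 19.8 and 6.46 CPM and 52.5 and 108 CPM. The orphan receptor gene Gpr141 had 32.4, 29.4 and 27.8 CPM and 127 and 129 CPM, with the chronic libraries close together and the peak libraries close together. Saa3, an acute-phase protein made by macrophages, was not among the genes of smallest p and is given as a gene named above. It had 58.2, 224 and 31.6 CPM and 1219 and 1104 CPM. In each case the stages did not overlap.

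The 5 markers did not pass either. Their log2 fold changes for chronic over peak were -1.09 ± 1.35 for Arg1, 1.27 ± 0.45 for Ms4a7, 0.80 ± 0.42 for Gpnmb, -0.02 ± 0.65 for Tgfbi and -1.27 ± 0.78 for F10 (SE), with unadjusted p from 0.0185 to 0.971 by edgeR. Counting genes whose CPM did not overlap between stages, 8.5% of all genes were higher at chronic EAE and 14.6% lower. In the damage-associated list 7 of 21 were higher and 0 lower, among them Cd63 (1624, 1670.5 and 1598 CPM, against 524 and 328 CPM), Cd9 (1315, 1901 and 1703 CPM, against 536 and 643 CPM) and Igf1. Of 15 inflammatory genes 0 were higher and 6 lower, and the same counts held for 26 genes of hypoxia and glycolysis and for 15 monocyte genes. The median log2 fold change of the damage-associated list was 0.59 and that of the inflammatory list -0.75, against -0.0248 over all genes. Microglial markers had the same direction: 3 of 10 were higher in every chronic library and 0 lower, with a median of 1.16, and their part in the values of the damage-associated list was not tested. For complex I the median was 0.34 over 36 subunits, of which 1 had an unadjusted p under 0.05.

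Whether the stages differed by another amount in macrophages than in neighbouring classes was tested as an interaction in edgeR. Against monocytes 0 of 9283 genes passed (0%; 355 at an unadjusted p under 0.05; 2 by DESeq2); leaving out chronic a gave 17 and leaving out chronic b gave 1. The smallest adjusted p, 0.0743, was that of the lectin receptor gene Clec4a1, at -1.76 ± 0.25 (log2, SE). For Bhlhe41 the interaction was -2.20 ± 0.37, with an adjusted p of 0.142: monocytes had 44.4, 116 and 75.6 CPM at chronic and 1.44 and 3.51 CPM at peak EAE. Against dendritic cells 1 of 8993 passed (0.0111%; 502 at an unadjusted p under 0.05), and 99 passed without chronic a, 2 without peak b and 0 without chronic b or peak a. That gene was Phgdh, the first enzyme of serine synthesis, with 17.6, 15.6 and 12.3 CPM in chronic and 5.55 and 9.99 CPM in peak macrophages, against 14.6, 17.1 and 10.5 CPM and 108 and 86.3 CPM in dendritic cells. The difference lay in the peak dendritic cells, and by edgeR its adjusted p was 0.0101 over all libraries, 0.5 without peak a and 0.112 without chronic b.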

How the data were processed

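Sorted spinal cord cells of EAE mice were sequenced by droplet single-cell RNA-seq; the submitters' processing notes name Cell Ranger 3.1.0, R 4.1.3 and the build GRCm38 (mm10). The deposited matrix holds raw UMI counts of 22598 features in 22148 cells, and the deposited cell table gives each cell's library, gate, class, cluster, percent of mitochondrial UMIs (at most 5) and log10 of its total UMIs, which matched the counts. The authors' class, cluster and doublet calls were used as deposited; no source used here says how they were made. A dense copy of the counts was not used.

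Counts were summed per library and class (at least 10 cells) and fitted with edgeR 4.0.16 (limma 3.58.1, R 4.3.3) on the whole table: trimmed-mean scaling, filterByExpr, and a quasi-likelihood test with Benjamini-Hochberg adjustment over all genes (threshold 0.05) for chronic against peak macrophages and for the interaction of stage with class. Class comparisons took the library as a block, or stage as a covariate for microglia, and carry no p-value because the classes were drawn from the same expression; the fold rule asks for a log2 fold change of 1 or more in size, in the same direction in every library (against microglia, with no overlap of libraries). Folds against a class with 0 to 3 UMIs are not given. Shares came from cells thinned to 2000 UMIs (1000 as an alternative), with exact 95% binomial intervals; intervals and the limit a count of 0 allows (3 counts) cover counting error only. DESeq2 1.42.0 was an alternative test. Scripts were tested on simulated counts. Python 3.11.15 with pandas 2.3.3, numpy 2.4.6, scipy 1.17.1 and matplotlib 3.10.9 made tables and figures.

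The genes named are the 5 markers, members of the gene lists past the rule or of highest level, and the genes of widest range. Per class comparison, the 10 highest and 6 lowest by their weakest library were taken among genes past the fold rule. These had a mean of at least 100 CPM in the higher class. Per stage test, genes called with a mean of at least 20 CPM in macrophages of a stage were taken. Where fewer than 3 were called in a direction, those of smallest p filled the 3, with no CPM minimum. Phgdh was called but lay under that minimum. The 6 best correlated genes per marker came from those in at least 10% of thinned cells. The members, the lists and these rules were chosen with earlier results of these data known.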

Additional observations from a re-analysis of the deposited data

Results flagged for a closer look

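For 1 gene the effect of stage differed between 2 classes by an interaction test. Phgdh, the first enzyme of serine synthesis, had an interaction of 3.86 ± 0.48 (log2, SE; adjusted p = 0.0101 over 8993 genes, edgeR), meaning that chronic over peak was higher in macrophages than in dendritic cells. Macrophages had 17.6, 15.6 and 12.3 CPM at chronic EAE and 5.55 and 9.99 CPM at peak EAE, against 14.6, 17.1 and 10.5 CPM and 108 and 86.3 CPM in dendritic cells. The peak dendritic sums come from 75 and 27 cells.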

How the results depend on the processing

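No paired analysis was possible because no source used here ties a library of the cell table to a replicate number, so the planned replicate block was not run. For chronic against peak macrophages, the 0 calls became 206 with no filter on low counts and 37 with DESeq2, and 0 to 155 when a library was left out. The interaction with monocytes, 0 calls, gave 55 with no filter, 2 with DESeq2 and 0 to 17 without a library; that with dendritic cells, 1 call, gave 85 with no filter and 0 to 99 without a library. By the fold rule, 2001 genes passed against dendritic cells and 597 against monocytes with no filter. Against microglia of the infiltrating libraries, compared within libraries by the same-direction rule, 730 passed. Leaving out a library gave 1326 to 1506 (dendritic cells), 305 to 329 (monocytes), 2197 to 2544 (T cells) and 1342 to 1894 (resident-gate microglia). The cause of these changes was not tested. Of single-gene values, 1107 kept direction and side of the threshold, 44 passed it newly, 2 lost it and 11 changed sign. The stage value of Tgfbi (log2) was 0.0343 in cluster 6 macrophages alone and -0.339 to 0.459 when a library was left out. In the interaction with monocytes, leaving out a library gave -0.132 to 0.709 for Arg1, -0.867 to 0.00617 for Ms4a7 and -0.0848 to 0.261 for F10. In that with dendritic cells it gave -4.71 to 2.63 for Arg1 and -0.0436 to 0.965 for Ms4a7, and DESeq2 gave -0.204 for Arg1. Median-ratio (RLE) scaling, scaling by library size alone and cluster 6 macrophages alone moved none of these counts by over 1.5 times; library size alone moved the median log2 fold change of all genes to -0.134 from -0.0248 for stage and to 0.114 from -0.0111 for the interaction with dendritic cells. Thinning before summing and leaving out macrophages with a T cell marker UMI, run for chronic against peak only, also gave 0 calls. Where 1 library was left of a stage, it was assumed to vary like the others. Depth limits chronic c most, and T cells and dendritic cells by their few cells.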

Other observations

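Growth factor genes were spread over the libraries in different ways. Pdgfa, a growth factor for oligodendrocyte precursors, had 110.0, 118 and 149.8 CPM in chronic a, b and c macrophages and 23.0 and 80.9 CPM in peak a and b. Inhba, a subunit of activin A, had 107, 8.13 and 3.23 CPM and 55.0 and 101 CPM, low in chronic b and c. Tgfb1 had 589, 406 and 219 CPM and 328 and 235 CPM. Of 11 growth factor genes tested, 4 had chronic libraries all above the peak libraries and 0 all below, where 8.5% and 14.6% of all genes did, and none was called. The growth factors named here were chosen after their values were seen.

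Of 31 transcription factor genes, 9 were higher in macrophages than in dendritic cells and 8 lower by the fold rule, against 10.4% and 6.2% of all genes. Maf, a leucine zipper factor, had 48.9, 39.6 and 245 CPM in chronic and 77.0 and 172 CPM in peak macrophages, against 0 to 12.8 CPM in dendritic cells. Bhlhe40, a repressor, went the other way, at 143, 97.3 and 51.7 CPM and 70.8 and 111 CPM, against 125 to 425 CPM. Outside that list, H2-M2, a class I-like gene of the MHC, had 4.47, 275 and 58.8 CPM in chronic and 3.66 and 22.3 CPM in peak macrophages, with chronic b highest.

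The resident gate held a further 245 cells classed as macrophage, healthy control libraries included, not among the 1680. In 3 chronic resident libraries (68, 58 and 52 cells) Gpnmb was at 2588, 2519.6 and 1529.5 CPM and Arg1 at 894, 117 and 0 CPM. In the 2 peak resident libraries (30 and 20 cells) Gpnmb was at 3.18 and 14.2 CPM and Ms4a7 at 3.18 and 85.2 CPM, below the lowest infiltrating macrophage library for both genes. The clusters differed as well. Cluster 6 held 97.8% of the 1680 cells, but only 40, 21 and 24 of the chronic and 2 and 3 of the peak resident macrophages. Cluster 3 held 26 and 13 of the peak ones, so gate and cluster cannot be told apart here. Resident and infiltrating libraries cannot be matched by letter.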
